A study of Mus musculus with 14 samples.

Results

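The loci of Ldc1, Lad1, Odf3l2, Crlf2, Tcstv3 and Prdm16 are 6 of the 21887 protein-coding genes in the mouse gene table (GRCm38.p6). They were selected on large differences of the same direction in the G9a and H3K9me2 tables, with no numeric limit set for large, so their G9a and H3K9me2 values are described here and not tested. Each locus was the gene body with 20000 bp either side, and H3K27me3 was read at the same place. The working name of the set holds that all 3 tables differ there. At the place that G9a and H3K9me2 share, this did not hold for Lad1 or for Prdm16, where no H3K27me3 region was listed.

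The chromatin came from C57BL/6J mouse heart cells enriched for cardiomyocytes. One group was sham mice, whose treatment field reads no treatment, and the other had transverse aortic constriction (TAC, a surgical narrowing of the aorta that loads the left ventricle) for 1 week. Chromatin was immunoprecipitated with antibodies to G9a, H3K9me2 or H3K27me3 and sequenced (ChIP-seq), with 2 biological replicates per antibody and condition. The study thus had 12 immunoprecipitated libraries and 2 inputs, the latter not analysed here. The sources used here give no age, sex or number of hearts behind a replicate, and an enriched population can hold other cells. The tables hold chromatin and no expression, so the labelled cell type could not be checked against its markers. A lower value can mean fewer cells that carry a mark or less of it per cell, and these cannot be told apart.

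G9a (Ehmt2) is a lysine methyltransferase that, with its partner GLP, places the dimethyl mark on lysine 9 of histone H3. H3K9me2 is known from broad, mostly silent stretches of chromatin. H3K27me3 is placed by a different enzyme, the Polycomb repressive complex, and is known from silent developmental genes.

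The authors deposited 1 table of differential regions per antibody. Every line holds 4 whole numbers in 2 pairs and a −log10 p, with no column names. Nothing in the sources used here says which pair is sham, so values are given as the first and the second pair, in the order of the table. That this order is the same in the 3 tables was assumed. A log2 difference is log2(mean + 1) of the second pair minus log2(mean + 1) of the first, and it understates the change of low regions. The fit across all regions, given further below, compares means of log2(value + 1) instead. Pairs are called separated when both libraries of the higher one lie above both of the other. The numbers may be scaled, so depth is unknown and no counting interval is given.

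The tables listed 388424 G9a, 245088 H3K9me2 and 552542 H3K27me3 regions. Library 1 of the second G9a pair stood apart: it was listed at 0 in 9.34% of G9a regions in the authors' deposited table, against 0.163% to 1.40% in the other 3. In that table it was also the lowest of the 4 libraries in 78.6% of the regions that were higher in the first pair. The G9a differences at the places are therefore given with and without this library. For 1 region, 2 libraries against 2 give an exact permutation test that cannot go below p = 0.333, two-sided.

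At the 6 loci, 128 G9a regions were listed, and 80 of them (62.5%) were higher in the second pair, against 44.5% of all G9a regions. For H3K9me2 it was 23 of 40 (57.5%), against 44.4% of all. For H3K27me3 it was 57 of 94 (60.6%), against 42.7%. The rule did not use the size of H3K27me3, but the loci were chosen with earlier results of these data known. The median log2 difference of the second-pair regions was 1.02 for G9a, 1.29 for H3K9me2 and 0.76 for H3K27me3, beside 1.01, 0.97 and 0.84 over all second-pair regions. For H3K27me3 the median at the loci was below that of all second-pair regions. The G9a share followed the window: over the gene bodies alone 20 of 55 G9a regions (36.4%) were higher in the second pair, below the 44.5% of all, and 33 of 70 (47.1%) with 5000 bp either side. Prdm16 alone held 42 of the 55 G9a regions over the gene bodies, and 34 of the 35 that were higher in the first pair. For H3K9me2 the share ran from 55.9% to 64.3% and for H3K27me3 from 60.6% to 69.4% over the windows tried.

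Separation was similar to the background for G9a. Of the second-pair regions at the loci, 63.8% were separated for G9a, 82.6% for H3K9me2 and 84.2% for H3K27me3. Over all second-pair regions these shares were 63.1%, 66.3% and 71.4%.

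All 6 windows held a region higher in the second pair in each of the 3 tables. Such a region was also found in 82.9% of all protein-coding gene windows for G9a, in 62.8% for H3K9me2 and in 79.7% for H3K27me3. Regions higher in the first pair lay in 6 windows for G9a (92.7% of all), in 4 for H3K9me2 (76.3%) and in 6 for H3K27me3 (88.8%). These shares of all windows are high, so a region in either direction sets the 6 loci little apart. The windows also differ in length, from 41400 bp at Tcstv3 to 361239 bp at Prdm16.

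**Figure D1:**
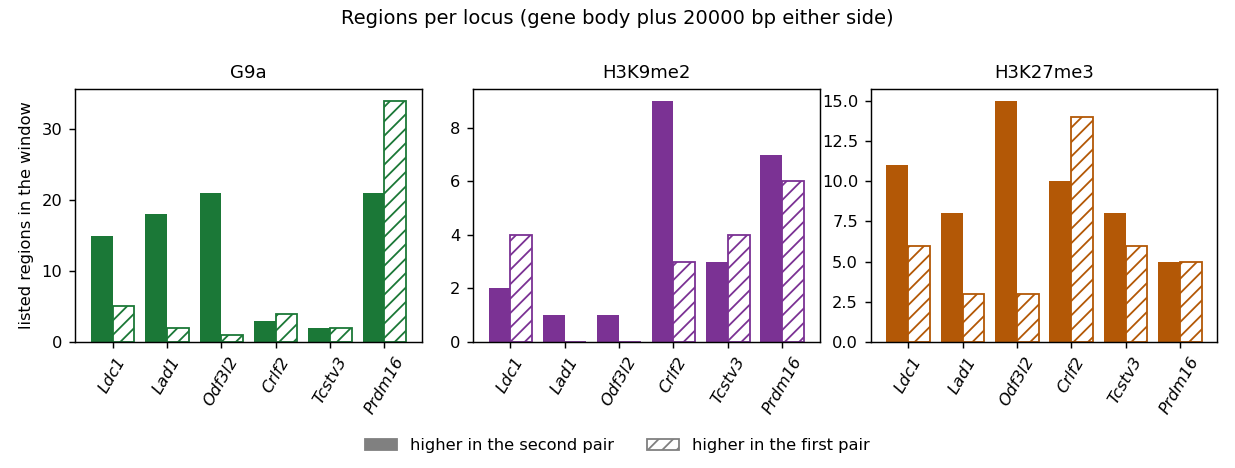
Number of listed regions in each locus window (y axis, 1 panel per antibody, each with its own scale), with filled bars for regions higher in the second pair and hatched bars for those higher in the first. Odf3l2 has 21 G9a regions higher in the second pair and 1 in the first, while Prdm16 has 21 and 34.

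A place was defined as the stretch covered by overlapping G9a and H3K9me2 regions of the same direction, from 1 bp of overlap. Each of the 6 loci held exactly 1 place higher in the second pair, and 27.8% of all protein-coding gene windows held at least 1. The choice of the loci used both tables, so nothing is read from this count. The log2 difference of G9a at these places ran from 0.96 (Prdm16) to 3.02 (Lad1), and that of H3K9me2 from 1.36 (Ldc1) to 2.25 (Lad1). A place with both values at least at these lowest ones lay in 1248 gene windows, 5.70% of all. The lowest G9a value comes from Prdm16, and with the lowest of the other 5 places (1.51) there were 446 such windows, 2.04% of all.

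**Figure D2:**
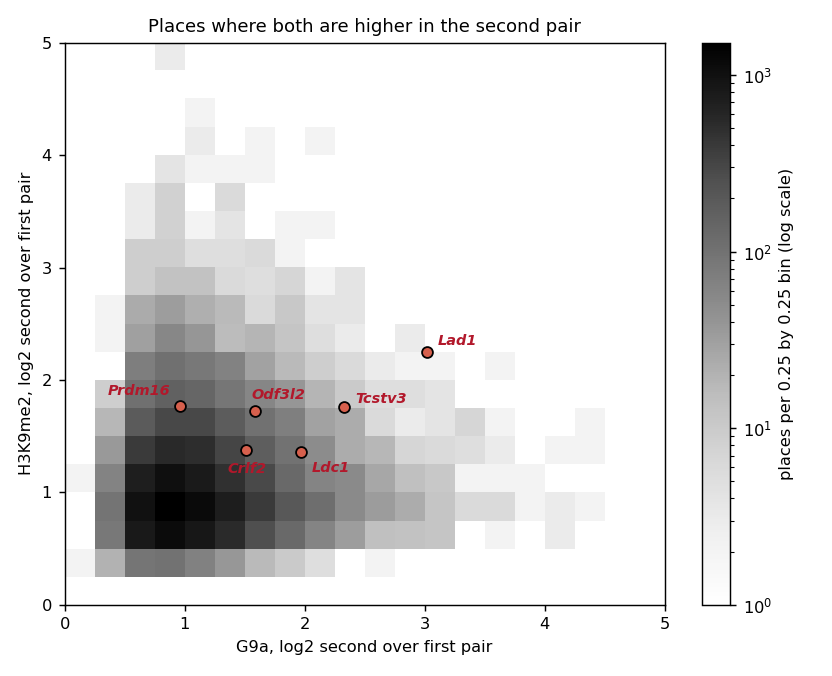
Log2 difference of G9a (x axis) against that of H3K9me2 (y axis), second over first pair, for the places higher in the second pair in both tables. Grey squares count places per bin on a log scale, the axes are drawn to 5, and the 6 red points are the members, of which Lad1 (3.02 and 2.25) lies farthest from the origin and Prdm16 (0.96) lowest for G9a.

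An H3K27me3 region higher in the second pair overlapped 4 of the 6 places (66.7%), against 54.2% of the 18272 such places in the genome. One higher in the first pair overlapped 3 of the 6, against 32.5% of all. The places at the loci are longer, with a median of 4250 bp against 1100 bp, and the part of length in these shares was not tested. The median log2 difference of the H3K27me3 values summed at a place was 0.16 at the loci and 0.59 over all places with one, and at Crlf2 and Tcstv3 it was −0.45 and −0.16. Counted by gene, a place with H3K27me3 of the same direction lay in 18.0% of protein-coding windows. At Ldc1 all H3K27me3 regions at the place went the same way as G9a and H3K9me2. At Odf3l2, Crlf2 and Tcstv3 the place held H3K27me3 regions of both directions.

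**Figure D3:**
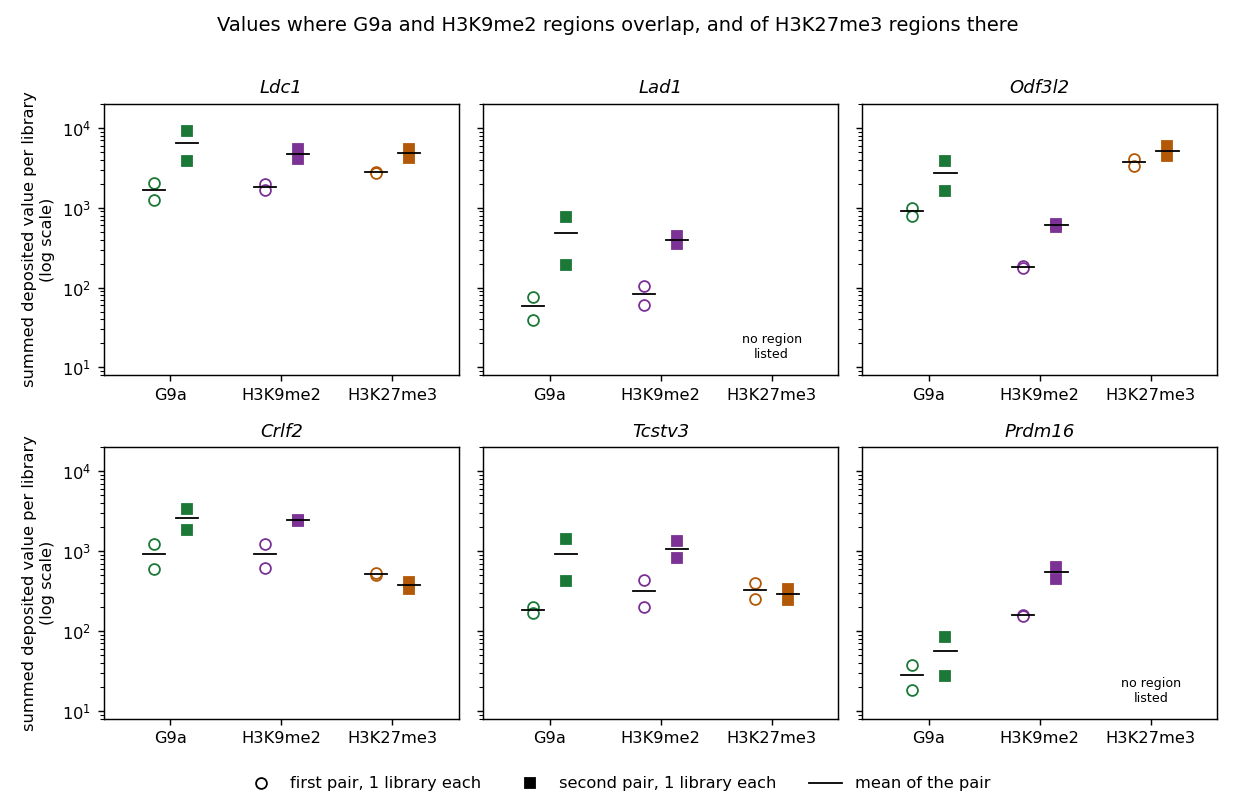
Deposited values of each library (y axis, log scale), summed over the regions at the shared place, for G9a, H3K9me2 and H3K27me3 at each locus. Open circles are the first pair, filled squares the second and black lines the pair means. G9a and H3K9me2 squares lie above the circles except for G9a at Prdm16, where 27 lies between 18 and 38, and the H3K27me3 squares lie below the circles at Crlf2.

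Ldc1 encodes leucine decarboxylase 1, of the ornithine decarboxylase family of polyamine enzymes. It lies on the minus strand at chr4:130209023-130222428 (mm10), and its place, chr4:130200451-130211400, covers the 3′ end of the gene and the sequence past it. For the G9a region that spans this place, the authors' deposited table gave 1250 and 2069, then 9217 and 3801 for the second pair. Both second-pair values were above both others, and the p of this region is listed as 0. The log2 difference was 1.97, and 1.20 without library 1 of the second pair.

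H3K9me2 filled the same stretch in 2 regions. The longer, chr4:130202251-130209250, had 1829 and 1435 against 3706 and 5039 per the authors' deposited table, with a log2 difference of 1.42. The shorter, chr4:130209301-130211050, had 176 and 240 against 375 and 333 per the authors' deposited table (0.76). Both were separated.

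H3K27me3 was higher in the second pair over nearly the whole place. Its region chr4:130198801-130210050 had 2515 and 2619 against 3911 and 5187 per the authors' deposited table, with a log2 difference of 0.83 with a deposited −log10 p of 120. A smaller region, chr4:130210601-130211700, had 330 and 140 against 300 and 330 per the authors' deposited table (0.42), and its pairs overlapped. That difference was −0.07 without library 2 of the first pair. H3K27me3 regions covered 95.0% of the place, the largest share of the 6. Summed over the place, the log2 difference was 0.80 for H3K27me3, beside 1.97 for G9a and 1.36 for H3K9me2. The locus was chosen for large G9a and H3K9me2 differences, so nothing is read from this order.

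The start of Ldc1 lay outside the place. There the H3K9me2 region chr4:130222451-130223150 was higher in the first pair, with 113 and 118 against 24 and 79 per the authors' deposited table (−1.15). It covered 95 of the 300 bases of the promoter, which runs from 250 bases before the transcript start to 50 after it. Of all 15 G9a regions of the Ldc1 window that were higher in the second pair, 13 were separated. In 1 of them, chr4:130241351-130242100, the first pair was listed at 0 and 1 and the second at 261 and 163 in the authors' deposited table. This region lay 18923 bp from the gene.

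Upstream of Ldc1, G9a and H3K27me3 overlapped without H3K9me2. The G9a region chr4:130225951-130227100 had 133 and 31 against 352 and 178 per the authors' deposited table (1.68), and 0.99 to 3.06 with 1 library left out. The H3K27me3 region chr4:130225201-130227650 had 332 and 247 against 607 and 772 per the authors' deposited table (1.25), the largest of the 11 H3K27me3 differences towards the second pair in the Ldc1 window. Both were separated, and neither is part of the shared place.

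The promoters of Ldc1 and Lad1, the members with a listed region on theirs, are shown with that of Tnnt2, which lies in the Lad1 place, since they differ in which table listed a region at the start. Listed regions also lay on the promoters of the neighbours Tnni1, Shc2, Madcam1, BC147527 and Arhgef16, which are not shown. They are RefSeq sequences of GRCm38.p6, 5′ to 3′ on the gene's strand, and capitals mark each CG, the dinucleotide that carries most DNA methylation. CG reads the same on both strands. Ldc1 is on the minus strand at chr4:130222246-130222545, Lad1 on the plus strand at chr1:135818348-135818647 and Tnnt2 on the plus strand at chr1:135836084-135836383.
Ldc1: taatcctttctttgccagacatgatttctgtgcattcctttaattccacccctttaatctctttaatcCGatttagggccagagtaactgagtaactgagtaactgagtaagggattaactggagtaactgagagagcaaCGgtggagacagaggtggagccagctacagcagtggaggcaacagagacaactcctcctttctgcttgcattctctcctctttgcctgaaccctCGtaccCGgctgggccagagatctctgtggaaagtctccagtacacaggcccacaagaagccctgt
Lad1: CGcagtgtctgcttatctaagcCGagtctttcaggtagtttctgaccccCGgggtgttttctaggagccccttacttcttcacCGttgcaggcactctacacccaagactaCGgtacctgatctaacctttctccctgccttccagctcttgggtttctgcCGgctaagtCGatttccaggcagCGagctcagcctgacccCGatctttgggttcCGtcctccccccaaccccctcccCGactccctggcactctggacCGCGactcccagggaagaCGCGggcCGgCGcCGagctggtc
Tnnt2: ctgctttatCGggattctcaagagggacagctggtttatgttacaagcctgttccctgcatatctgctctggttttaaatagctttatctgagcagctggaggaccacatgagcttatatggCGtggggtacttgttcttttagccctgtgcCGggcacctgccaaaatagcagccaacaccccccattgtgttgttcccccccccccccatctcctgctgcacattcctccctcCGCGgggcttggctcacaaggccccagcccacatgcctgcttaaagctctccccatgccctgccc

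The Ldc1 promoter held 4 CG, a number that 68.6% of all 32851 promoters in the table reach. The Lad1 promoter held 18, reached by 29.7%, and the first Tnnt2 promoter 5, reached by 62.0%. Of the other members, the Crlf2 promoter held 31 (10.6%) and that of Prdm16 24 (20.0%), and no listed region of any table lay on either. Odf3l2 and Tcstv3 were not matched in the promoter table.

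Lad1 encodes ladinin-1, a protein of the anchoring filaments that tie epithelium to its basement membrane, and lies on the plus strand at chr1:135818598-135833341. Its place, chr1:135835701-135836850, lay 2360 bp past the end of Lad1 and over the start of Tnnt2, which encodes cardiac troponin T of the thin filament. The Tnnt2 gene begins 2974 bp from Lad1, and the whole of the Tnnt2 promoter printed above lay inside the place. The G9a and H3K9me2 regions there had identical edges.

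The G9a region at the Tnnt2 start had 39 and 77 against 766 and 191 per the authors' deposited table. Its log2 difference of 3.02 was the largest of the 6 places and was 1.70 without library 1 of the second pair, where the value of 191 remained above both of the first pair. The H3K9me2 region had 61 and 104 against 353 and 442 per the authors' deposited table, with a log2 difference of 2.25. It was the sole H3K9me2 region in the Lad1 window. No H3K27me3 region overlapped the place, and the nearest ended 7001 bp away and was higher in the first pair. The nearest H3K27me3 region higher in the second pair lay 10901 bp away.

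The start of Lad1 itself differed in another pair of tables. An H3K27me3 region over it, chr1:135818151-135822500, had 650 and 793 against 1514 and 1639 per the authors' deposited table, with a log2 difference of 1.13 with a deposited −log10 p of 70.1. It covered all 300 bases of the Lad1 promoter. The G9a region just before the gene, chr1:135816151-135818500, had 103 and 300 against 545 and 458 per the authors' deposited table (1.31), and 0.74 without library 1 of the first pair. Both were separated, and no H3K9me2 region lay there. Within 1 window, then, H3K27me3 and G9a were higher in the second pair at the start of Lad1, and H3K9me2 and G9a at the start of Tnnt2. Over the whole Lad1 gene body 3 of 5 H3K27me3 regions were higher in the second pair and 2 in the first, beside 42.7% of all for the second.

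Tnni1, which encodes the slow skeletal troponin I that the fetal heart also uses, is the other troponin gene in the window. The window holds 12392 of its 27957 bp. Over the whole of Tnni1 12 of 14 G9a and 11 of 13 H3K27me3 regions were higher in the second pair, against 44.5% and 42.7% of all. No H3K9me2 region was listed over Tnni1. The G9a region on the Tnni1 promoter, chr1:135799101-135799650, was higher in the first pair (−0.57). Of 5 cardiomyocyte marker genes (Myh6, Tnnt2, Actn2, Ryr2 and Tnni3), Tnnt2 was the sole gene with a place in its window (27.8% of all windows have one). That place is the one at Lad1, so the count uses values that chose the loci.

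Odf3l2 is related to the outer dense fibre proteins of the sperm tail and lies at chr10:79639526-79645738. Its place, chr10:79639251-79646300, covered the whole gene body. The G9a region had 999 and 798 against 3819 and 1602 per the authors' deposited table, with a log2 difference of 1.59, and of 0.83 without library 1 of the second pair. Both second-pair values were above both of the first. The H3K9me2 region inside it, chr10:79640901-79642350, had 186 and 177 against 576 and 628 per the authors' deposited table (1.72). The values of each H3K9me2 pair lay close together, and this was the sole H3K9me2 region in the window.

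H3K27me3 differed in both directions along the gene. The region chr10:79634301-79640850 had 3244 and 2370 against 4624 and 3473 per the authors' deposited table (0.53). Its difference was 0.32 without library 2 of the first pair and 0.31 without library 1 of the second. The region chr10:79641351-79642350, within the H3K9me2 region, had 153 and 147 against 296 and 210 per the authors' deposited table (0.75). A region 151 bp further on, chr10:79642501-79643350, turned the other way, with 217 and 255 against 213 and 73 per the authors' deposited table (−0.72). The 213 of library 1 of the second pair lay just below the 217, so most of this difference rested on library 2 of that pair. The last one at the place, chr10:79644001-79646450, had 477 and 532 against 736 and 725 per the authors' deposited table (0.53). All 4 were separated.

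G9a differed on both sides of Odf3l2 as well. Of the 21 G9a regions in its flanks, 20 were higher in the second pair, against 44.5% of all G9a regions. The length of its G9a regions, parts past the window edge included, equalled 75.5% of the window length, the largest share of the 6 loci. Summed over the window, the 4 libraries had 3141, 4196, 11682 and 7320 in the authors' deposited table for G9a. The neighbours Shc2, an adaptor of receptor tyrosine kinases, and Madcam1, a vascular adhesion molecule, reach past the window. Over the whole of Shc2 10 of 11 G9a regions were higher in the second pair, and over the whole of Madcam1 2 of 2, beside the same 44.5%. H3K9me2 had 1 region over Shc2, outside the window and higher in the second pair, and none over Madcam1.

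Crlf2 encodes the receptor subunit that binds thymic stromal lymphopoietin (TSLP) and signals with the interleukin-7 receptor. It lies on the minus strand at chr5:109554709-109559128. Its place, chr5:109549701-109558000, held the downstream part of the gene and the sequence past its end, where the non-coding gene Gm8493 lies 723 bp from Crlf2. The main G9a region, chr5:109549701-109556350, had 555 and 1093 against 3205 and 1692 per the authors' deposited table (1.57). Without library 1 of the second pair the log2 difference was 1.04, and without library 1 of the first 1.16.

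H3K9me2 followed the same outline in 2 regions. At chr5:109549801-109554700 it had 390 and 744 against 1694 and 1384 per the authors' deposited table (1.44). At chr5:109554801-109558000 it had 226 and 500 against 785 and 992 per the authors' deposited table (1.29). In both, the lowest second-pair value was above the highest of the first. The G9a and the first H3K9me2 region began 100 bp apart.

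At the Crlf2 place, 3 of the 4 H3K27me3 regions were higher in the first pair. The region chr5:109550451-109551200 had 173 and 201 against 148 and 112 per the authors' deposited table (−0.52). The region chr5:109554001-109554550 had 103 and 184 against 61 and 85 per the authors' deposited table (−0.97), and chr5:109556701-109557250 had 177 and 76 against 73 and 60 there (−0.92), or −0.19 without library 1 of the first pair. Between these, chr5:109556051-109556500 had 47 and 70 against 134 and 79 per the authors' deposited table (0.85). Over the window, 14 of 24 H3K27me3 regions were higher in the first pair, near the 57.3% of all H3K27me3 regions that were. Crlf2 was the sole locus of the 6 where the H3K27me3 values summed over the window were lower in the second pair (−0.19), beside 1.02 for G9a and 0.95 for H3K9me2. That sum turned to 0.11 over the gene body alone, where those of Tcstv3 and Prdm16 were −0.14 and −1.88.

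A further place at Crlf2, chr5:109537301-109538300, was higher in the first pair. H3K9me2 there had 198 and 153 against 43 and 75 per the authors' deposited table (−1.56). H3K27me3 at chr5:109537601-109538750 had 248 and 285 against 170 and 122 per the authors' deposited table (−0.86). G9a at chr5:109537751-109538300 had 103 and 55 against 23 and 73 per the authors' deposited table (−0.71), and its pairs overlapped. That difference was −0.11 without library 1 of the second pair and −0.19 without library 1 of the first.

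Tcstv3 belongs to a gene family that is transcribed at the 2-cell stage of the mouse embryo, and lies at chr13:120316862-120318261. It has near-identical relatives, so reads there may be shared between copies. Its place, chr13:120320751-120322200, lay 2490 bp past the higher-coordinate end of the gene. No G9a or H3K9me2 region lay on the gene body. The G9a region had 202 and 167 against 1443 and 418 per the authors' deposited table (2.33), and 1.18 without library 1 of the second pair. The H3K9me2 region had 199 and 434 against 811 and 1337 per the authors' deposited table (1.76). These 2 regions began at the same base and ended 150 bp apart.

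Next to this place the direction turned within a short distance. The H3K9me2 region chr13:120318351-120319200, 90 bp past the gene, was higher in the first pair, with 119 and 190 against 58 and 82 per the authors' deposited table (−1.13). The H3K27me3 region chr13:120320201-120321050 at the start of the place had 344 and 134 against 188 and 113 per the authors' deposited table (−0.66), with overlapping pairs, and 0.17 without library 1 of the first pair. The next H3K27me3 region, chr13:120321051-120321650, had 53 and 121 against 149 and 135 per the authors' deposited table (0.70), and 0.23 without library 1 of the first pair. In the rest of the window towards higher coordinates no region of any table was listed.

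A place higher in the first pair lay on the other side of Tcstv3, at chr13:120311801-120312700. G9a there had 29 and 113 against 2 and 62 per the authors' deposited table (−1.13), and −0.19 without library 1 of the second pair. H3K9me2 had 42 and 175 against 58 and 60 per the authors' deposited table (−0.87), and neither was separated. Without library 2 of the first pair the H3K9me2 difference was 0.48 and that of G9a 0.14, so the direction of this place rested on that 1 library. The H3K27me3 region that overlapped it, chr13:120310551-120315000, was higher in the second pair, with 1401 and 605 against 1759 and 1469 per the authors' deposited table (0.69), and 0.20 without library 2 of the first pair.

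Prdm16 encodes a zinc finger regulator with a PR domain, known from brown fat and from the growth of the ventricular wall in the embryo. It is the longest member, 321239 bp on the minus strand at chr4:154316122-154637360. Its place, chr4:154537551-154538700, lay inside the gene body and rested on a weak G9a region. That region, chr4:154538001-154538350, had 18 and 38 against 27 and 84 per the authors' deposited table (0.96), with a deposited −log10 p of 2.45 and overlapping pairs. The difference was 1.55 without library 1 of the second pair and −0.05 without its library 2, so the direction of G9a, and with it the place, rested on that 1 library. The H3K9me2 region there had 160 and 156 against 637 and 449 per the authors' deposited table (1.77). No H3K27me3 region was listed at this place.

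The H3K9me2 region with the smallest p at Prdm16 was a different one. It lay 822 bp past the 3′ end of the gene, at chr4:154313351-154315300, with 178 and 189 against 929 and 747 per the authors' deposited table (2.19). No G9a region overlapped it. The nearest G9a region, chr4:154311851-154312300, was 1051 bp away and had 7 and 42 against 69 and 92 per the authors' deposited table (1.68), or 0.92 without library 1 of the first pair. H3K27me3 did overlap it, at chr4:154313851-154314900, with 54 and 99 against 259 and 287 per the authors' deposited table (1.82). Of the 4 loci where a second-pair H3K27me3 region overlapped the leading H3K9me2 region, this difference was the largest, beside 0.83 at Ldc1, 0.75 at Odf3l2 and 0.70 at Tcstv3.

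**Figure D4:**
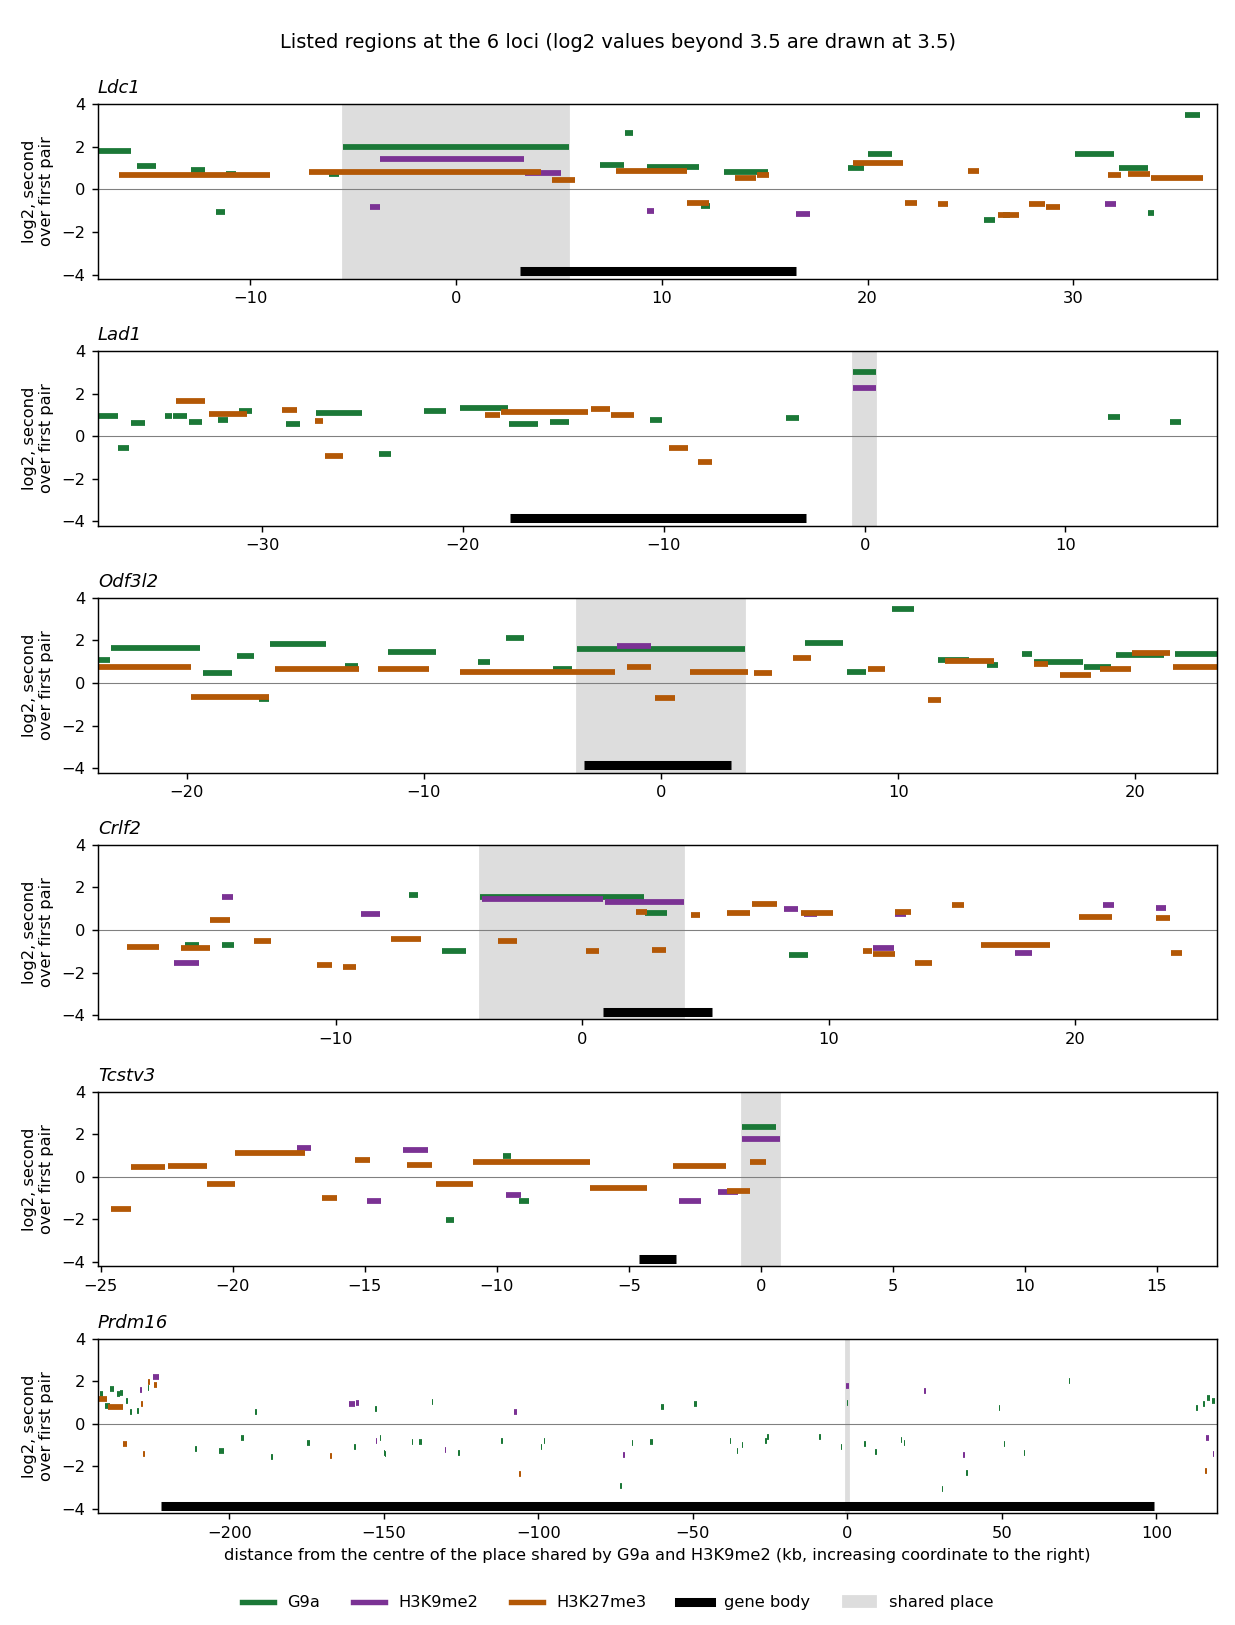
Log2 difference (y axis, second over first pair) of every listed region at the 6 loci against its distance in kb from the centre of the shared place (x axis), coloured by antibody, with the gene body in black and the shared place in grey. The Lad1 place lies past the gene, and at Prdm16 the G9a regions below 0 all lie over the gene body.

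G9a at Prdm16 split by position. All 13 G9a regions in the flanks were higher in the second pair, against 44.5% of all G9a regions. Over the gene body 8 of 42 were higher in the second pair, against the same 44.5%, and 34 in the first. Library 1 of the second pair was the lowest of the 4 in 33 of those 34 (97.1%), against 78.6% of all first-pair G9a regions. Its median value there was 10 against 81, 87 and 63 in the other libraries of the authors' deposited table. Without this library 26 of the 34 (76.5%) remained higher in the first pair, against 90.1% of all first-pair G9a regions. The part of this library in the split was not tested. Among the 21 G9a regions of the window that were higher in the second pair, the same library was the lowest in 2 (9.52%, against 3.82% of all). The flank region chr4:154299701-154301000 had 110 and 83 against 273 and 327 per the authors' deposited table (1.63).

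**Figure D5:**
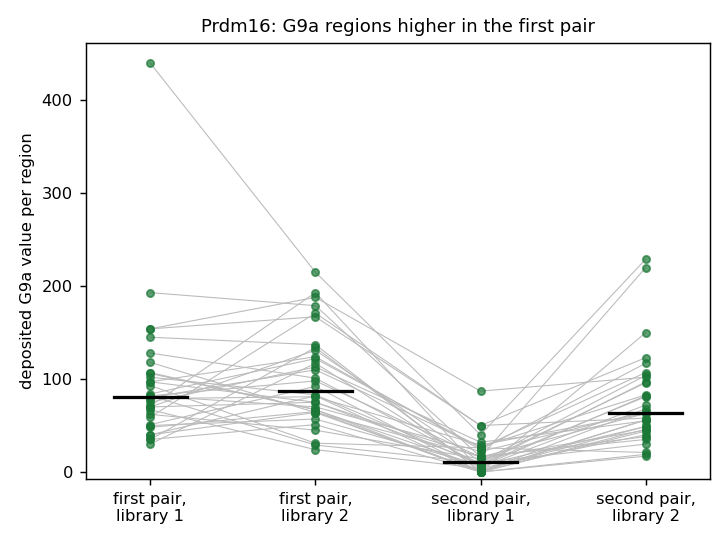
Deposited G9a value (y axis) of each of the 34 gene-body regions of Prdm16 that were higher in the first pair, by library (x axis), with grey lines joining a region and black bars at the medians of 81, 87, 10 and 63. Library 1 of the second pair lies lowest in 33 regions.

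The G9a region of the Prdm16 gene body with the smallest p, chr4:154334901-154336450, had 440 and 215 against 40 and 229 per the authors' deposited table (−1.28), and its pairs overlapped. That difference was −0.51 without library 1 of the second pair, −3.00 without its library 2 and −0.67 without library 1 of the first pair. H3K9me2 over the gene body was mixed, with 5 regions higher in the second pair and 4 in the first. H3K27me3 had 2 regions there, both higher in the first pair, and chr4:154431901-154432450 had 87 and 154 against 31 and 15 per the authors' deposited table (−2.34). Next to the gene, Arhgef16, a guanine nucleotide exchange factor, lies mostly outside the window. Over its whole length all 8 G9a regions and 7 of 9 H3K27me3 regions were higher in the second pair, against 44.5% and 42.7% of all. Both of its H3K9me2 regions were higher in the first.

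Over whole windows the loci differed in how the 3 tables combined. Summed G9a values had log2 differences of 1.55 at Ldc1, 0.97 at Lad1, 1.37 at Odf3l2, 1.02 at Crlf2, 1.62 at Tcstv3 and −0.07 at Prdm16. Without library 1 of the second pair these were 1.09, 0.70, 1.00, 0.66, 0.80 and 0.25, so the sum at Prdm16 changed sign. For H3K9me2 these were, in the same order, 1.13, 2.25, 1.72, 0.95, 0.82 and 0.91. For H3K27me3 they were 0.63, 0.85, 0.54, −0.19, 0.29 and 0.56, and that of Tcstv3 was −0.06 without library 2 of the first pair. The length of the listed regions was set against that of the window, with parts past its edge included. For G9a this share ranged from 5.56% (Tcstv3) to 75.5% (Odf3l2). For H3K9me2 it ranged from 2.10% (Lad1) to 32.1% (Crlf2), so sums rest on very different lengths. For H3K27me3 it ranged from 3.75% (Prdm16) to 78.4% (Odf3l2).

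In a fit across all regions of each table (limma on log2(value + 1), Benjamini-Hochberg adjustment over the table), no region was called at an adjusted p of 0.05. The counts at an unadjusted p under 0.05 were 15286 for G9a, 21446 for H3K9me2 and 67865 for H3K27me3. At the 6 loci the smallest limma adjusted p was 0.461 for G9a, 0.389 for H3K9me2 and 0.361 for H3K27me3. The deposited p of the same regions were far smaller, and the sources used here do not say how they were computed. The H3K27me3 differences did not pass the limma test at any of the 6 loci.

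Genes related to the members were read in the same windows, as counts. Of 15 Prdm family genes, which share the PR domain, 8 had a place higher in the second pair, beside 27.8% of all windows. They were Prdm2, Mecom, Prdm6, Prdm8, Prdm10, Prdm12, Prdm13 and Prdm16, of which Prdm16 was chosen for its differences. In 4 of them H3K27me3 of the same direction lay at a place, beside 18.0% of all windows. The part of window length in these counts was not tested. At Prdm8 the leading G9a region had 32 and 35 against 160 and 136 per the authors' deposited table (2.11). At Prdm12 the leading H3K27me3 region had 7453 and 7665 against 13200 and 10199 per the authors' deposited table (0.63). G9a had a region higher in the second pair in 14 of the 15 windows (82.9% of all windows) and one higher in the first in all 15 (92.7%).

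Of 12 genes of TSLP and interleukin-7 receptor signalling, 2 had a place, the receptor Crlf2 and the ligand Tslp, beside 27.8% of all windows, and Crlf2 was chosen for its differences. At Tslp the leading G9a region had 81 and 53 against 168 and 184 per the authors' deposited table (1.38), and the H3K9me2 region 71 and 59 against 162 and 186 there (1.41). Jak3, the kinase bound to the shared receptor chain of this family, had no H3K9me2 region higher in the second pair, and its leading G9a region had 212 and 294 against 742 and 762 per the authors' deposited table (1.57).

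Of the 15 genes of the 2-cell stage list 14 were matched, and 6 had a place, beside 27.8% of all windows. In 3 of them H3K27me3 of the same direction lay at a place, beside 18.0% of all windows. Tcstv3 is among the 6 and was chosen for its differences. H3K9me2 regions lay in all 14 windows in both directions (62.8% of all windows for the second pair, 76.3% for the first). G9a had 8 windows with a second-pair region (82.9% of all) and 14 with a first-pair one (92.7%), and H3K27me3 likewise 8 (79.7%) and 14 (88.8%). At Tdpoz4 the leading second-pair G9a region had 16 and 17 against 63 and 133 per the authors' deposited table (2.50). Its first-pair G9a region had a smaller deposited p, with 147 and 420 against 0 and 74 per the authors' deposited table (−2.90, and −1.92 without library 1 of the second pair).

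Among 11 genes of anchoring filaments and basement membranes, 5 had a place, among them Lad1, Col17a1 and Itgb4, beside the same 27.8% of all windows as for the lists that follow. At Itgb4, the integrin subunit of hemidesmosomes, the leading G9a region had 180 and 123 against 771 and 227 per the authors' deposited table (1.71), and 0.58 without library 1 of the second pair. Of 8 outer dense fibre genes 2 had a place, Odf2 and Odf3l2. Of 11 genes of the ornithine decarboxylase family, polyamine synthesis and the antizymes 2 had a place, Ldc1 and Srm, the spermidine synthase. In these lists Lad1, Odf3l2 and Ldc1 were chosen for their differences. At Odc1, ornithine decarboxylase itself, no H3K9me2 region was listed, and the leading H3K27me3 region had 415 and 439 against 1114 and 954 per the authors' deposited table (1.27).

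Likeness was measured as the distance between genes over 3 log2 differences, 1 per table at the smallest p in the window, among 17297 genes with a region in all 3 tables. Among the 2 nearest genes of each member were Antxrl and B3gnt6 for Ldc1, Olfr524 and Tmem132b for Lad1, and Cxcr4 for Odf3l2. They also included Rbm43 and Nmi for Crlf2, with the same values for both, Moxd2 and Adam12 for Tcstv3, and Gal3st4 and Mlxip for Prdm16. The distance ran from 0.0398 (Antxrl) to 0.147 (Tmem132b) on the log2 scale. Antxrl had log2 differences of 1.94 for G9a, 1.41 for H3K9me2 and 0.82 for H3K27me3, against 1.97, 1.42 and 0.83 at Ldc1. The 3 regions behind such a triple need not overlap.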

How the data were processed

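The authors deposited 1 table of differential regions per antibody (mm10, GRCm38). Per the submitters' processing notes, BWA 0.7.10-r789 and SAMtools 1.1 were used. Caller, scaling and input correction: not given in the sources used here. Column 11 holds the authors' 4 other values, whole numbers in 2 pairs, and the deposited −log10 p, which was at least 2 (p of at most 0.010), so the tables hold selected regions only. They were not treated as raw counts. Log2 differences of pair means (pseudocount 1), windows of 20000 bp, places and counts were computed with Python 3.11 and pandas 2.3.3. limma 3.58.1 (R 4.3.3) was fitted on log2(value + 1) over each table and was tested on simulated data. Gene positions and promoters came from RefSeq GRCm38.p6, without exons, and all 6 members were matched.

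The members and gene lists were chosen with earlier results of these data known. Named are the members, protein-coding genes in their windows, per member, table and direction the region with the smallest deposited p, each shared place, up to 3 genes per list and 2 like genes per member. Other regions named in the text, genes with a place and genes of the promoter sequences were chosen after their values were seen. Alternatives covered windows, overlap, p, pseudocount, centring and left-out libraries. Markers of endothelium, fibroblasts and leukocytes had a place in 1 of 4, 1 of 4 and 2 of 4 genes, beside 27.8% of all windows. Some genes of the lists and of the like genes are not reported here.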

Additional observations from a re-analysis of the deposited data

How the results depend on the processing

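The number of regions higher in the second pair at the 6 loci followed the window. For G9a the 80 (beside 48 higher in the first pair) became 20 (35) over the gene body alone, 33 (37) with 5000 bp and 153 (77) with 50000 bp either side, so the second-pair share went from 62.5% to 36.4%, 47.1% and 66.5%. For H3K9me2 the 23 became 9 and 15 with the first 2 of these, and for H3K27me3 the 57 became 14, 25 and 126. Of the 55 G9a regions over the gene bodies, Prdm16 alone held 42, and 34 of the 35 that were higher in the first pair. A deposited −log10 p of at least 5 left 46 G9a and 35 H3K27me3 regions higher in the second pair. Separated second-pair regions numbered 51 for G9a (63.8%, against 63.1% of all second-pair G9a regions). Places with H3K27me3 of the same direction went from 4 to 2 at that p in all 3 tables, and Prdm16 then had no place. No share of all regions or places at that p is given here, so nothing is read from the counts at that p. Summed log2 differences that changed sign with the window were G9a at Prdm16 (0.72 with 50000 bp) and H3K27me3 at Crlf2 (0.11 over the gene body, 0.33 with 5000 bp), Tcstv3 (−0.14, gene body) and Prdm16 (−1.88, gene body). Fewer or more regions enter such a sum.

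Leaving out 1 library at a time, chosen for these counts after seeing the data, gave 69 to 84 regions for G9a, 22 to 25 for H3K9me2 and 55 to 63 for H3K27me3. The leading first-pair G9a region ranged from −5.16 to 0.17 at Lad1, from −1.92 to 0.75 at Odf3l2 and from −1.79 to 0.95 at Crlf2, and the direction turned at Lad1 without library 2 of the first pair (0.17) or library 1 of the second (0.12), at Odf3l2 without library 2 of the first and at Crlf2 without library 1 of the first. Summed values, also left out after seeing the data, ranged from −0.49 to 0.25 for G9a at Prdm16 and from −0.06 to 0.73 for H3K27me3 at Tcstv3. At the places, G9a ranged from −0.05 to 1.57 at Prdm16 and H3K27me3 from −0.44 to 0.20 at Tcstv3. limma called 0 to 56515 G9a regions when 1 library was left out. The 56515 came without library 2 of the second pair, 56293 of them higher in the first pair, and 11 of the 128 at the 6 loci were among the calls. The lone second-pair library, the one with most values at 0, is then assumed to vary like the first pair. No H3K9me2 or H3K27me3 region was called under any alternative run. Centring the libraries on their medians moved the median log2 difference of all regions by 0.29 for G9a, 0.17 for H3K9me2 and 0.29 for H3K27me3, and the counts of second-pair regions at the 6 loci stayed at 80, 23 and 57. Of 204 values under left-out libraries, pseudocount and centring, 172 moved by less than the spread between replicates, 28 by more, and 4 changed sign. These were values of the region with the smallest deposited p per member, table and direction. Other regions named in the text were not counted there, and some of them changed sign without 1 library.

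No paired analysis was possible because the value columns carry no replicate numbers. Depth is unknown, 2 libraries stand in each pair, and the tables hold only regions the authors selected, so a place with no listed H3K27me3 region says nothing of the level of the mark. Inputs were not used here.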
